A study of Sus scrofa domesticus with 2 samples.

Results

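The genes described here were CDKN1A, CDKN1B, CDKN1C, CDKN2B, ZMAT3, MDM2, CCNG1, BTG2 and GDF15, 9 of the 22804 genes counted in cultured porcine endothelial cells (ECs). They were chosen by name, as genes of cell cycle arrest and of the p53 response, and not by their level. The symbols of 8 genes stood in the feature lists, and CDKN1C was matched through its identifier, ENSSSCG00000040461, in a table of gene names.

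ECs line the blood vessels. The study isolated primary ECs from a lobe of pig lung and from the stretch of aorta close to it by digestion with collagenase, grew them in DMEM with fetal calf serum, and made 1 single-cell RNA sequencing library from each culture. The labels name no treatment. According to the paper, the cultures for sequencing were kept in normal EC growth medium, and both shared the same medium. Tissues for the single-cell libraries came from slaughterhouse pigs at an age of 6 months, hybrids of the Landrace, Large White and Duroc breeds. The sex of the animals, the number of passages and whether both cultures came from the same animal were not given in the sources used here. With 1 library for each tissue there were no replicates, cells of a library were not treated as such, and no test between classes or tissues was made. Intervals printed below are 95% intervals of counting error only.

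A cell that divides passes a checkpoint before it copies its DNA, where cyclin-dependent kinases (CDKs) must be active. Proteins of the CIP/KIP family (p21 from CDKN1A, p27 from CDKN1B and p57 from CDKN1C) and of the INK4 family (p15 from CDKN2B) bind these kinases or their cyclin complexes and hold the cell in G1. The transcription factor p53 is stabilised by DNA damage and other stress and switches on CDKN1A together with ZMAT3, MDM2, CCNG1, BTG2, GDF15 and other genes. MDM2 in turn marks p53 for degradation, which closes a negative feedback loop. In resting vessels nearly all ECs are out of the cycle, and in culture they enter it when serum is given.

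The aorta library held 1185 cells with 46080859 UMIs (unique molecular identifiers, each 1 captured transcript) and a median of 45594 UMIs per cell. The lung library held 5946 cells with 57213236 UMIs and a median of 9326 per cell. Only 5 cell barcodes occurred in both. The study's limits (over 200 and under 5000 detected genes and under 30% mitochondrial UMIs) left 5683 lung cells and 246 aorta cells. For the aorta this is far fewer than the study kept after its own filtering, and why was not given in the sources used here. A further 709 aorta cells had 5000 or more genes and passed the other limits. They had a median of 58476 UMIs, are called deep aorta cells here, and carry the main values for the aorta. The upper limit on genes was set by the study to remove doublets (droplets with more than 1 cell), so the deep aorta cells all lie beyond it, and how many of them are doublets was not tested.

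Cells were sorted into classes after each had been thinned to 5200 UMIs, so that depth did not set the class. ECs carried at least 5 thinned UMIs of PECAM1, CDH5, ESAM, TIE1 and EGFL7, and collagen-high cells at least 10 of COL1A1 and COL1A2. There were 4810 ECs and 290 collagen-high cells in the lung, and 554 and 127 among the deep aorta cells. ECs with no thinned UMI of TOP2A, CDK1, PCNA or MCM6 are called resting, those with 1 or 2 intermediate, and those with 3 or more cycling. This gave 1876 resting, 1583 intermediate and 1351 cycling ECs in the lung, and 203, 174 and 177 in the deep aorta. The boundary is not sharp, since 514 lung ECs had 2 such UMIs and 333 had 3. Cells called resting only lacked these transcripts, and a short stay in G1 and a lasting exit from the cycle cannot be told apart by this rule. Resting ECs were shallower than cycling ECs, with medians of 8872 and 11855 UMIs in the lung and 54289 and 65317 in the deep aorta.

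Levels are given as UMIs per 1000000 UMIs of the class (CPM), and the labels were checked against marker genes on this scale. Over the 12 endothelial markers, which include those of the gate, the summed level was 3254 CPM in lung ECs and 184 CPM in lung collagen-high cells, and 3111 and 97.8 CPM in the deep aorta. The defining EC genes VWF (0.422 and 0.182 CPM) and KDR (1.71 and 0.364 CPM) were nearly absent from the ECs of the lung and the deep aorta. VWF was at 0 in lung collagen-high cells and KDR in deep aorta collagen-high cells. The 10 collagen and mesenchymal markers summed to 35.6 CPM in lung ECs and 192 CPM in deep aorta ECs, against 13319 and 11598 CPM in the collagen-high cells. This list includes COL1A1 and COL1A2 of the gate, so part of the difference follows from the rule. Between resting deep aorta cells, 7 of 9 markers counted were higher past 2-fold in collagen-high cells and 2 were lower. Smooth muscle markers were also higher in collagen-high cells (4338 and 3976 CPM) than in ECs (1066 and 286 CPM), while the 7 immune markers summed to 3.32 CPM or less in every one of these classes. The collagen-high class is therefore named only by its rule.

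Of the CDK inhibitors among these 9 genes, CDKN1B was the only one at 20 CPM or more. CDKN1A had 72 UMIs in the whole lung library (1.26 CPM, 0.985 to 1.58) and 69 in the aorta library (1.5 CPM, 1.17 to 1.9). CDKN2B had 83 UMIs (1.45 CPM, 1.16 to 1.8) and 42 UMIs (0.911 CPM, 0.657 to 1.23). CDKN1C had 141 UMIs (2.46 CPM, 2.07 to 2.91) and 261 UMIs (5.66 CPM, 5 to 6.39). These 3 genes were thus close to the detection limit of single cells: 182 of the 203 resting deep aorta ECs carried no CDKN1A UMI, 132 carried no CDKN1C UMI and 191 no CDKN2B UMI, at a median of 54289 UMIs per cell. A library of 3′ ends counts a transcript only where its reads fall within the annotated gene, so a low count need not mean few transcripts. CDKN2A, which neighbours CDKN2B, is listed in the files as P14ARF, the name of one of its products, under the identifier ENSSSCG00000005134 that the table of gene names gives to CDKN2A. It had 187 UMIs in the lung library (3.27 CPM, 2.82 to 3.77) and 104 UMIs in the aorta library (2.26 CPM, 1.84 to 2.73).

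The other 6 members were well counted in both libraries. CDKN1B stood at 32.1 CPM in the lung library and 43.1 CPM in the aorta library. ZMAT3, which encodes an RNA-binding zinc finger protein, stood at 86 and 117 CPM. MDM2, the ubiquitin ligase of p53, stood at 56 and 83.2 CPM. CCNG1, which encodes cyclin G1, had 203 and 235 CPM, and BTG2, an antiproliferative gene whose product acts with the mRNA deadenylation machinery, had 58.4 and 164 CPM. GDF15, a secreted stress cytokine of the TGF-β superfamily, had 42.1 and 110 CPM. UMIs of 3′ ends were not divided by gene length, and levels are compared here between classes and not between genes.

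p53 binds a site of 20 bases made of 2 decamers. Sites matching the p53 consensus were searched on both strands within 2500 bases of the RefSeq start of each gene on Sscrofa11.1, with no or 1 spacer base, at most 2 mismatches, and an intact C and G at the core of each decamer. At least 1 match lay near 5 of the 9 members, ZMAT3, MDM2, CCNG1, BTG2 and GDF15, while 6.94% of 19535 annotated genes had one. With at most 1 mismatch there were matches near 3 members (0.947% of all genes), and with none near 1 member, ZMAT3 (0.0768% of all genes). These sequences are shown because this search found them near the 5 genes and not near the 4 CDK inhibitors. CDKN1A is itself a p53 target. Sites outside this window or with more than 2 mismatches were not searched, so none found does not mean that a gene has none. Capitals mark the 20 bases of the match and lower case 5 flanking bases on each side, read 5′ to 3′ on the strand given.
ZMAT3, chr13:117145996-117146015, minus strand: tcataAAACAAGTCCAGACATGTCTaggcg
MDM2, chr5:33106505-33106524, plus strand: gggctGGTCAAGTTCGGACAAGTTCctaag
CCNG1, chr16:60356399-60356418, minus strand: cagagTAACAAGTTCAGGCTAGTCCgtgcc
BTG2, chr9:64035057-64035076, plus strand: ccagaGGCCTTGCCTGGACATGCCAgcccg
GDF15, chr2:59410593-59410612, minus strand: gggcaGAACCTGCTTGGGCTGGTTCcgaat

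All 5 matches lay in introns downstream of the start, at 1634 bases for ZMAT3, 797 for MDM2, 329 for CCNG1, 1213 for BTG2 and 754 for GDF15. A second match of ZMAT3, with 2 mismatches, lay in an untranslated part of an exon 116 bases from the start. Match and distance describe the letters only, and binding of p53 was not measured. The genes themselves lie at chr13:117113272-117147639 (ZMAT3), chr5:33105717-33137602 (MDM2), chr16:60349255-60356737 (CCNG1), chr9:64033853-64037795 (BTG2) and chr2:59409035-59411356 (GDF15). CDKN1A lies at chr7:32354776-32363771, CDKN1B at chr5:59731224-59735831, CDKN1C at chr2:2019391-2022092 and CDKN2B at chr1:200666250-200770880. MDM2 and CDKN1B share chromosome 5, and GDF15 and CDKN1C share chromosome 2.

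The first comparison asked whether genes of arrest were higher in ECs without cycle transcripts. In the lung and the deep aorta the p53 targets of the list mostly were, by modest ratios, and CDKN1B was not. In the lung, CDKN1B had 31 CPM (28.5 to 33.7) in resting, 30.7 in intermediate and 40.1 CPM (37.1 to 43.3) in cycling ECs, a ratio of resting to cycling of 0.774 (0.69 to 0.868). Deep aorta ECs had 49, 56.3 and 52.9 CPM in the same order, with a ratio of 0.927 (0.827 to 1.04) whose interval included 1. The transcript of this inhibitor was thus as high or higher in cycling ECs of the lung and the deep aorta. The lower lung level of CDKN1B in resting ECs lay against the G2M side of the cycle (42.7 CPM, ratio 0.727, 0.645 to 0.82), while against the S side (35.1 CPM, ratio 0.885, 0.673 to 1.18) the interval included 1.

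Among the 6 members at 20 CPM or more, BTG2 showed the largest ratio in the lung, and GDF15 in the deep aorta. BTG2 had 72.1 CPM (68.2 to 76.2) in resting, 62.1 in intermediate and 47.5 CPM (44.2 to 50.9) in cycling lung ECs, and 246, 188 and 125 CPM in the deep aorta. The ratios of resting to cycling were 1.52 (1.39 to 1.66) and 1.97 (1.85 to 2.1). In the lung and the deep aorta BTG2 fell from class to class with the number of cycle UMIs. GDF15 had 145 CPM (138 to 152) in resting, 128 in intermediate and 68 CPM (63.4 to 72.8) in cycling deep aorta ECs, a ratio of 2.13 (1.96 to 2.32). In the lung it had 46, 33 and 37.9 CPM, a ratio of 1.21 (1.09 to 1.35), and the intermediate ECs were the lowest of the 3 classes.

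ZMAT3 and CCNG1 went the same way in both cultures. ZMAT3 had 102 CPM (97.1 to 107) in resting and 73 CPM (68.9 to 77.2) in cycling lung ECs, a ratio of 1.39 (1.3 to 1.5), and 169 and 92.3 CPM in the deep aorta, a ratio of 1.83 (1.7 to 1.98). CCNG1 had 229 and 179 CPM in the lung (ratio 1.28, 1.22 to 1.34) and 297 and 215 CPM in the deep aorta (ratio 1.38, 1.31 to 1.45). Intermediate ECs lay between the other classes for both genes, with 81.8 and 142 CPM of ZMAT3 and 199 and 270 CPM of CCNG1. MDM2 was higher in resting ECs of the deep aorta, with 109 against 68.2 CPM and a ratio of 1.6 (1.46 to 1.75), and the intermediate ECs, at 108 CPM, were level with the resting ones. In the lung its levels were 61.1 and 56.8 CPM, and the ratio of 1.08 (0.985 to 1.18) did not exclude equal levels at this depth.

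Counted at 2-fold, these differences were small. Among genes at 20 CPM or more in either class, 0.192% of 5733 genes in the lung and 1.08% of 6127 in the deep aorta were higher past 2-fold in resting ECs. Of the 6 members that reached 20 CPM, 0 passed in the lung and 1, GDF15, in the deep aorta. Its ratio there lay between 1.71 and 2.91 under other ways of drawing the classes, so the call depends on them. The shares lower past 2-fold were 4.20% and 7.30%, with 0 members in both sets. Set against all genes, few had a larger ratio than BTG2 in the lung (0.959% of genes tested) or than GDF15 (0.783%), BTG2 (1.11%) and ZMAT3 (1.83%) in the deep aorta. The median ratio over the 6 members was 1.24 in the lung and 1.72 in the deep aorta, against 0.98 and 0.965 over all genes tested. The members were chosen as arrest genes with earlier results of these data known, so these places describe them and test nothing. The 10 collagen and mesenchymal markers summed to 227 CPM in resting and 147 CPM in cycling ECs of the deep aorta, and to 33.9 CPM in both classes of the lung. Their part in the ratios was not tested.

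The aorta cells within the study's limit on genes did not show the same ratios for every member. They held 36 resting and 17 cycling ECs, and 12.4% of genes tested passed 2-fold upward and 16.4% downward, with BTG2 the 1 member among them (258 and 104 CPM, higher in resting ECs, ratio 2.48, 1.61 to 3.97). A single cell held 17 of the 25 BTG2 UMIs of their cycling ECs, and their intermediate ECs had 342 CPM of BTG2, above the resting ones. CCNG1 had 359 and 246 CPM (ratio 1.46, 1.08 to 2), and ZMAT3 208 and 154 CPM (ratio 1.35, 0.917 to 2.02). MDM2 was lower in resting ECs, with 94.8 and 158 CPM and a ratio of 0.599 (0.382 to 0.944), on the other side of 1 from the deep aorta. That ratio rested on 47 and 38 UMIs, and a single cycling cell held 10 of the 38. It ran from 0.369 to 1.61 under the alternative settings, so its side of 1 depends on them. GDF15 had 86.7 and 108 CPM, from 43 and 26 UMIs, a ratio of 0.801 (0.481 to 1.36) whose interval included 1 and lay below that of the deep aorta. CDKN1B had 50.4 CPM (32.6 to 74.4) in resting and 41.7 CPM (20 to 76.6) in cycling ECs, from 25 and 10 UMIs. Its ratio of 1.21 ran from 0.49 to 1.79 under the alternative settings.

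**Figure D1:**
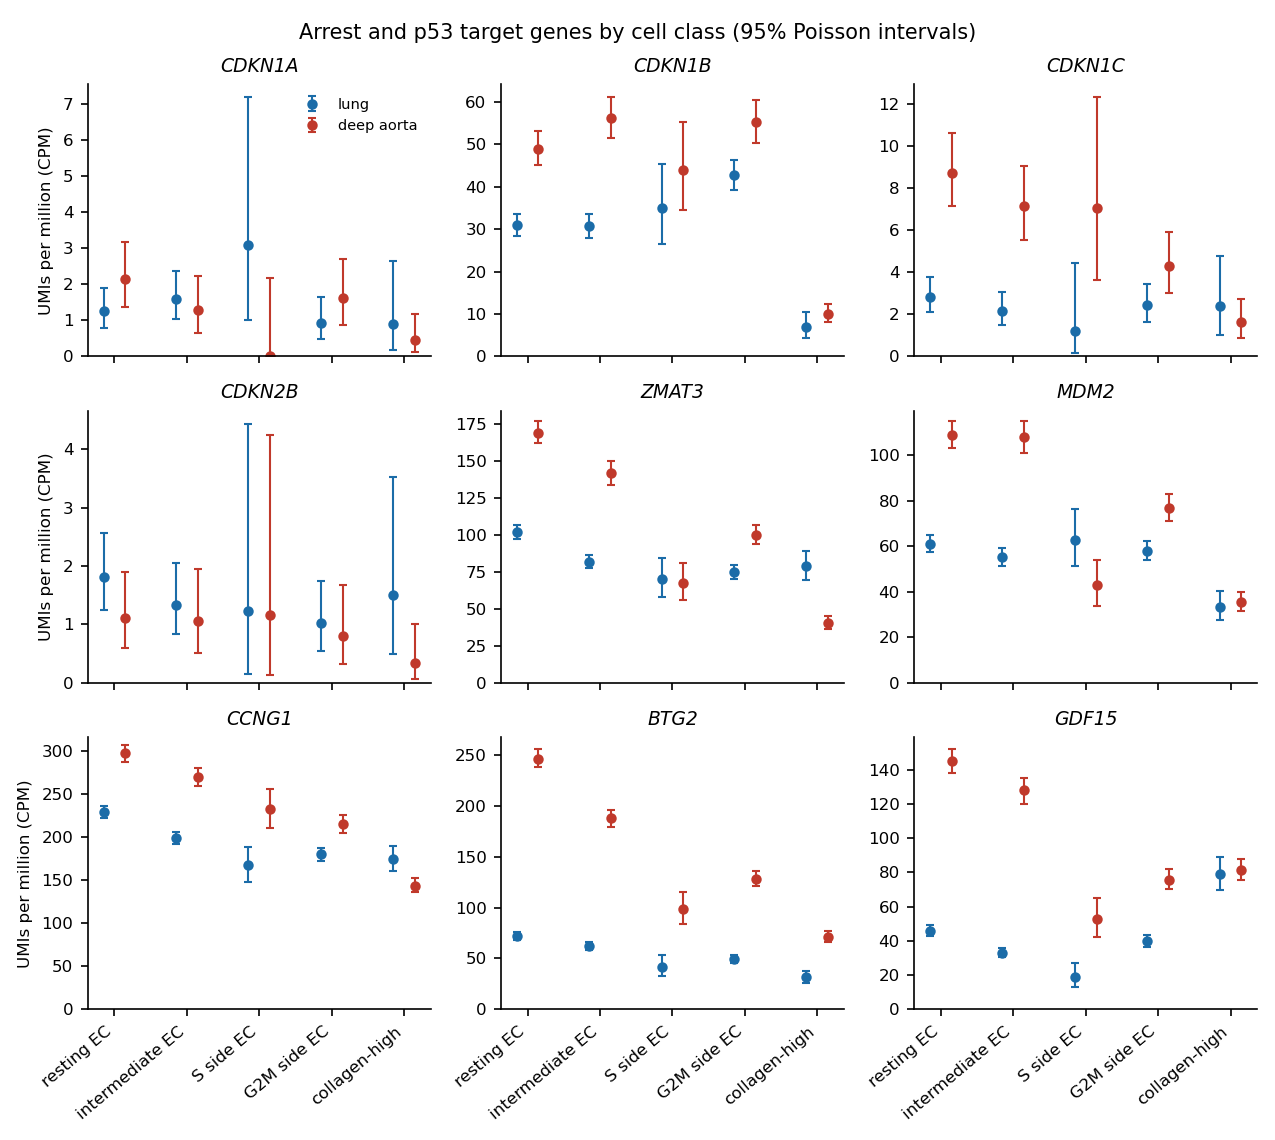
Level of each member in 5 classes of cells, in CPM of the class, with 95% Poisson intervals as bars; blue points are the lung library and red points the deep cells of the aorta library, and each panel has its own axis from 0. From resting to cycling ECs, BTG2 falls in both libraries, GDF15, MDM2 and ZMAT3 fall most in the deep aorta, CDKN1B does not fall, and CDKN1B is lowest in collagen-high cells.

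Within the cycle, 4 of the p53 targets were lowest on the S side in the deep aorta, that is in cycling ECs with at least 2 UMIs of PCNA and MCM6 but none of TOP2A or CDK1. There were 151 such ECs in the lung and 29 in the deep aorta. On the G2M side, with at least 2 UMIs of TOP2A and CDK1, there were 1000 and 123, and 200 and 25 cycling ECs were on neither side. GDF15 had 52.9 CPM (42.5 to 65) on the S side and 75.8 CPM (70.1 to 81.8) on the G2M side. MDM2 had 42.9 CPM (33.6 to 53.9) and 76.9 CPM (71.2 to 83), ZMAT3 67.5 CPM (55.8 to 81.1) and 100 CPM (93.8 to 107), and BTG2 98.7 CPM (84.3 to 115) and 128 CPM (121 to 136). The intervals of the 2 sides, which cover counting error only, did not overlap for any of these 4 genes. CCNG1 was the exception, with 232 CPM (210 to 256) on the S side and 215 CPM (205 to 225) on the G2M side. In the lung the intervals overlapped for ZMAT3 (57.8 to 84.2 on the S side, 70.4 to 80 on the G2M side). They also overlapped there for BTG2 (32.5 to 53, 45.8 to 53.6) and MDM2 (51.2 to 76.2, 53.9 to 62.4). Those of GDF15 did not (13 to 27.1, 36.5 to 43.5).

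Compared with the same resting ECs, 4 of the 6 members counted were past 2-fold above the S side in the deep aorta, at 2.74 for GDF15 (2.22 to 3.43), 2.54 for MDM2 (2 to 3.26), 2.51 for ZMAT3 (2.08 to 3.05) and 2.5 for BTG2 (2.14 to 2.94). Of all genes tested, 1.99% were that much higher and 7.32% that much lower. In the lung, 1 member was, GDF15 with 46 against 19.1 CPM (13 to 27.1) and a ratio of 2.41 (1.69 to 3.57), where 0.280% of genes were higher and 2.03% lower. MDM2 in the lung had 62.7 CPM (51.2 to 76.2) on the S side, close to its 61.1 CPM in resting ECs, and thus did not show there the low S side level it had in the deep aorta. Against the G2M side 0 members passed 2-fold in either direction, where 0.174% of genes were higher and 4.55% lower in the lung and 1.22% and 7.39% in the deep aorta. The nearest were BTG2 (1.92, 1.79 to 2.06) and GDF15 (1.91, 1.75 to 2.1) in the deep aorta. PCNA and MCM6, which define the S side, are themselves genes of DNA replication, and no level of theirs is given as a result here.

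MDM4, the partner of MDM2 that also restrains p53, had 34.8 CPM in resting and 40.4 CPM in cycling ECs of the lung, a ratio of 0.861 (0.77 to 0.962). Among deep aorta ECs it had 50 and 33.5 CPM, a ratio of 1.49 (1.31 to 1.7), and so lay on the opposite side of 1.

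**Figure D2:**
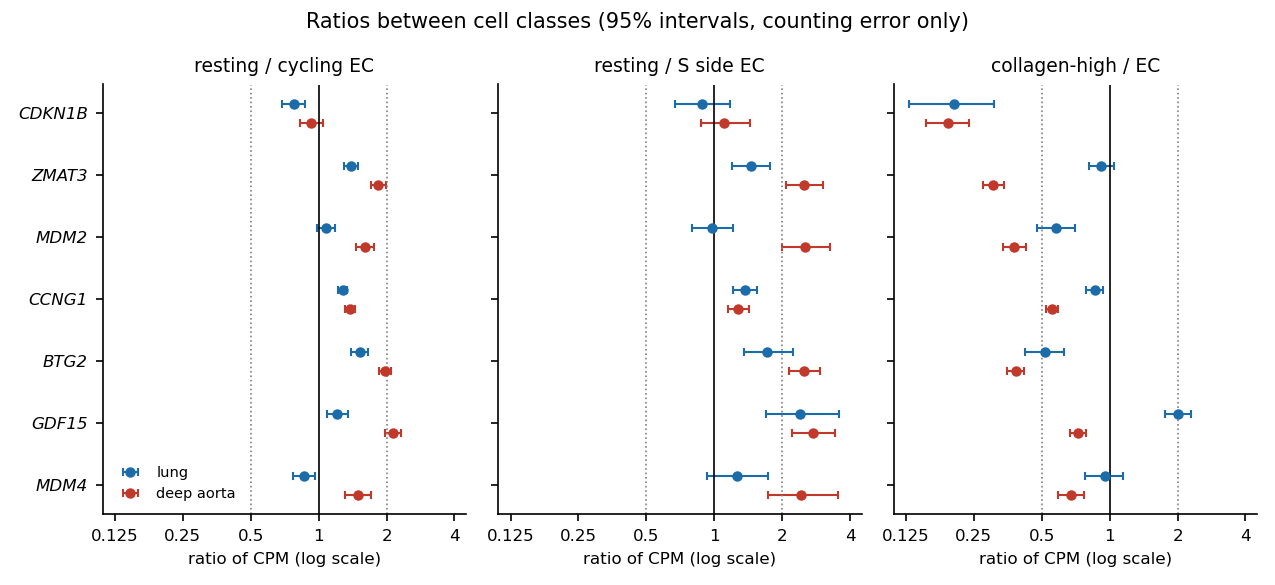
Ratios of CPM between classes for the 6 members at 20 CPM or more and for MDM4, on a log scale, with 95% intervals that cover counting error only; blue is the lung, red the deep aorta, the solid line marks 1 and the dotted lines 2-fold. GDF15 passes 2-fold between resting and S side ECs in both libraries, MDM4 lies on opposite sides of 1 against cycling ECs, and GDF15 lies on opposite sides of 1 in the collagen-high cells of the 2 libraries.

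Other p53 targets were looked at in a list of 30 genes, of which 28 were among the features. In the lung 14 reached 20 CPM, 9 of them above a ratio of resting to cycling of 1, with a median of 1.06. The 1 gene past 2-fold was DDB2, a DNA repair gene, and it was lower in resting ECs (10.6 and 24 CPM, ratio 0.44, 0.367 to 0.525). Of the deep aorta genes 15 reached 20 CPM, 11 of them above 1, with a median of 1.26. TP53INP1, whose product acts in autophagy and cell death, was the 1 gene higher past 2-fold (38.1 and 13.1 CPM, ratio 2.91, 2.42 to 3.51). For comparison, 45.1% of all genes tested in the lung and 44.7% in the deep aorta had a ratio above 1.

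Part of the cell cycle machinery was lower in resting ECs. The classes were drawn by TOP2A, CDK1, PCNA and MCM6, so lower levels of genes that rise with these follow in part from the rule. Of 20 other CDK inhibitors, cyclins, CDKs and pocket proteins, 12 were counted in the lung, with 4 lower past 2-fold and 0 higher, and 14 in the deep aorta, with 8 lower and 0 higher, where 4.20% and 7.30% of all genes tested were lower. The ratio was above 1 for 3 genes of the list in the lung and 4 in the deep aorta. RBL1, a pocket protein gene, had 8.87 and 32.9 CPM in resting and cycling lung ECs, and CDK2, the kinase that p21 and p27 bind, had 14.8 and 39.4 CPM. CCNE2, a cyclin of S phase entry, had 5.91 and 42.8 CPM in the deep aorta. Of 20 genes of growth arrest and quiescence, 2 of 14 counted in the deep aorta were higher past 2-fold in resting ECs, namely PDK4, which limits pyruvate oxidation (80.4 and 33.2 CPM), and YPEL3 (26.4 and 10.5 CPM). In the lung it was 0 of 10. Of 6 immediate early genes counted, 0 passed 2-fold either way in either set. Genes of the integrated stress response had median ratios of 0.629 over 9 genes in the lung and 0.811 over 7 in the deep aorta, with CHAC1, a glutathione-degrading enzyme gene, lower in resting lung ECs (13.6 and 28 CPM).

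The deep aorta cells allowed a look at single cells. In resting ECs a cell had between 0 and 784 CPM of MDM2, with a median of 70.7 CPM from 4 UMIs, and in cycling ECs between 0 and 834 with a median of 44.9 CPM. ZMAT3 had a median of 149 CPM in resting and 75.4 CPM in cycling ECs, with 25th to 75th percentiles of 91.6 to 218 and 29.8 to 125 CPM. The classes overlapped widely for every member. GDF15 was uneven between cells. Its median was 79.1 CPM in resting ECs, 44 of 203 cells had no UMI, and the highest cell had 2560 CPM. In cycling ECs the median was 16.7 CPM, 69 of 177 cells had none, and a single cell held 86 of the 810 UMIs (10.6%). After thinning, the variance of GDF15 UMIs between resting ECs was 2.05 times the mean in the lung and 3.45 times in the deep aorta, where counting error alone gives 1. In deep aorta ECs, resting and cycling, no other member had a higher value (2.81 for GDF15 in cycling ECs), while CDKN1C had 2.63 in resting lung ECs and ZMAT3 1.86 in deep aorta collagen-high cells, against 1.6 for GDF15. The same ratio for CDKN1B was 1 and 1.13 in resting lung and deep aorta ECs, from means of 0.164 and 0.271 thinned UMIs per cell. With so few UMIs, a ratio near 1 does not show that the cells were alike. Before thinning, CDKN1B ran from 0 to 237 CPM between resting deep aorta ECs, with no UMI in 29 of 203.

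**Figure D3:**
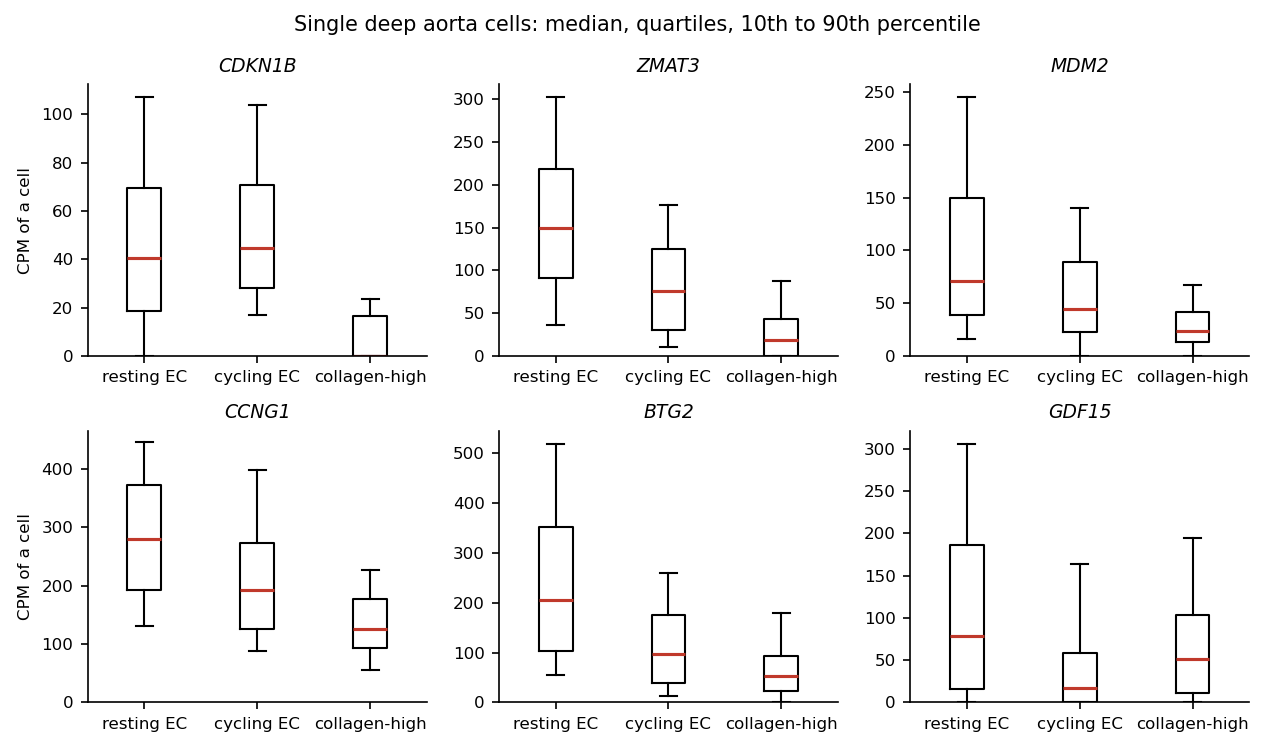
Levels of 6 members in single deep aorta cells, in CPM of the cell, for 203 resting ECs, 177 cycling ECs and 127 collagen-high cells; red lines are medians, boxes the 25th to 75th and whiskers the 10th to 90th percentiles over cells of 1 library. GDF15 has a median of 79.1 CPM in resting and 16.7 CPM in cycling ECs, and the median of CDKN1B in collagen-high cells is 0.

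The p53 targets varied together from cell to cell. Across the 203 resting deep aorta ECs, Pearson's r of log2(CPM + 10) was 0.534 between ZMAT3 and MDM2, 0.47 between ZMAT3 and CCNG1, 0.449 between ZMAT3 and GDF15 and 0.408 between MDM2 and GDF15. The median r of all 5502 genes at 20 CPM or more with ZMAT3 was -0.013, and only 2 genes had a higher r with ZMAT3 than MDM2 had. BTG2 followed less closely (0.292 with ZMAT3 and 0.0809 with CCNG1), and CDKN1B had 0.122 or less with ZMAT3, MDM2, CCNG1 and GDF15 and 0.177 with BTG2, a value that 47 of the 5502 genes exceeded for CDKN1B. All these cells share 1 library, and the values describe it without a test.

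The same pairs stood out in the intermediate and cycling ECs of the deep aorta, and not all of them in its collagen-high cells. ZMAT3 and MDM2 had r = 0.578 in the 174 intermediate ECs, 0.418 in the 177 cycling ECs and 0.321 in the 127 collagen-high cells. MDM2 and GDF15 had r = 0.644, 0.399 and 0.204 in the same order. ZMAT3 and CCNG1 had 0.505, 0.548 and 0.466. In the collagen-high cells 97 genes had a higher r with MDM2 than GDF15 had. There CCNG1 and GDF15 had r = 0.0621, and ZMAT3 and BTG2 had 0.311. In resting lung ECs, with far fewer UMIs per cell, ZMAT3 and MDM2 had r = 0.195, ZMAT3 and GDF15 0.209 and MDM2 and GDF15 0.224 over 1876 cells, and at this depth such values are weak. The mean of the log levels of ZMAT3, MDM2, CCNG1 and GDF15 had r = 0.232 with the mitochondrial share and 0.144 with log2 UMIs across resting deep aorta ECs. Within the 176 of them with 5 to 10% mitochondrial UMIs, ZMAT3 and MDM2 had r = 0.52 and MDM2 and GDF15 r = 0.41. The same mean also had r = 0.232 with the mitochondrial share within these 176 cells. This window thus did not remove the link with the share, and the part of the share in these pairs was not tested.

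**Figure D4:**
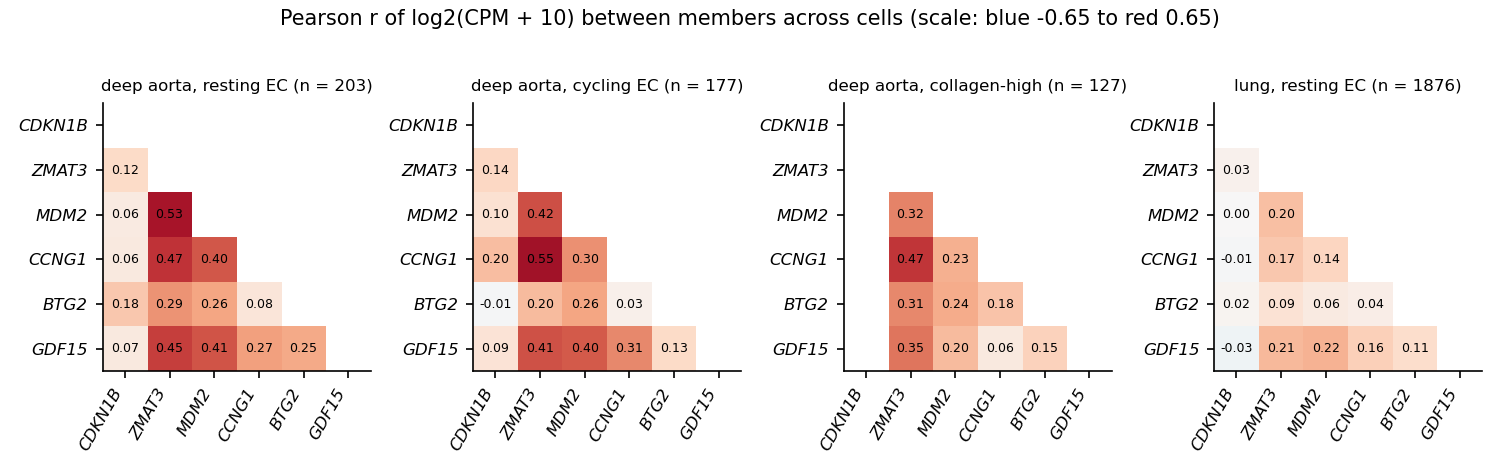
Pearson's r between pairs of members across single cells, on log2(CPM + 10), in 3 classes of deep aorta cells and in resting lung ECs, with the number of cells above each panel; CDKN1B was under 20 CPM in collagen-high cells and is left blank there. In resting deep aorta ECs the 5 highest values are pairs of ZMAT3, MDM2, CCNG1 and GDF15 (0.403 to 0.534), and CDKN1B has 0.122 or less with these genes.

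Ranked against that mean of 4 members, 8 of the 15 other p53 targets counted in resting deep aorta ECs were among the 5% of genes with the highest r. XPC, a DNA damage recognition gene, had r = 0.543 and rank 3 of 5498, RPS27L 0.523 and TP53INP1 0.48. In cycling ECs it was 8 of 14, in collagen-high cells 3 of 12 and in resting lung ECs 7 of 12. The highest r of all was that of MGMT, a DNA repair gene, in 3 deep aorta classes (0.645 in resting ECs, 0.607 in cycling ECs and 0.601 in collagen-high cells), and in resting lung ECs MGMT was second with 0.342, after FGF2 with 0.368. MGMT, FGF2, NPM1 and HMGB1 are named because of these values, not by a rule. In the intermediate ECs TP53INP1 ranked first (0.638) and MGMT sixth (0.589). At the low end, NPM1 had r = -0.478 and HMGB1 -0.47 in resting deep aorta ECs.

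Resting ECs were not uniform. They were split by thinned UMIs of 5 interferon-induced genes (3 or more of RSAD2, IFIT2, CXCL10, ISG15 and MX1) and of SLPI, CFD and CRYAB (10 or more). In the lung, 1268 resting ECs had neither, 576 only the interferon set, 14 only the SLPI set and 18 both. GDF15 had 34 CPM (30.7 to 37.5), 59.8 CPM (53.5 to 66.6), 172 CPM (107 to 263) and 335 CPM (256 to 432) in this order. MDM2 had 52.4, 74.1, 107 and 212 CPM, and ZMAT3 88.7, 123, 188 and 274 CPM. CDKN1B had 31.3 CPM with neither set and 30.9 CPM with the interferon set. The p53 targets were thus highest in the 18 lung ECs with both sets, which held few UMIs, as the wide intervals show.

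In the deep aorta the 4 groups held 80, 66, 27 and 30 resting ECs. GDF15 had 83.5 CPM (75.2 to 92.6) with neither set, 144 CPM (132 to 156) with the interferon set, 197 CPM (176 to 220) with the SLPI set and 249 CPM (226 to 273) with both. The same order held for ZMAT3 (127, 168, 197 and 250 CPM) and for MDM2 (82.4, 111, 132 and 147 CPM). BTG2 did not differ between cells with neither set (225 CPM, 211 to 239) and the interferon set (227 CPM, 213 to 243) beyond counting error, and had 320 CPM (294 to 347) with both. CDKN1B ranged from 43.6 to 57.8 CPM. The median mitochondrial share ran from 6.05 to 7.9% in these aorta groups and was 5.36% with neither set, 9.49% with the SLPI set and 8.63% with both in the lung.

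**Figure D5:**
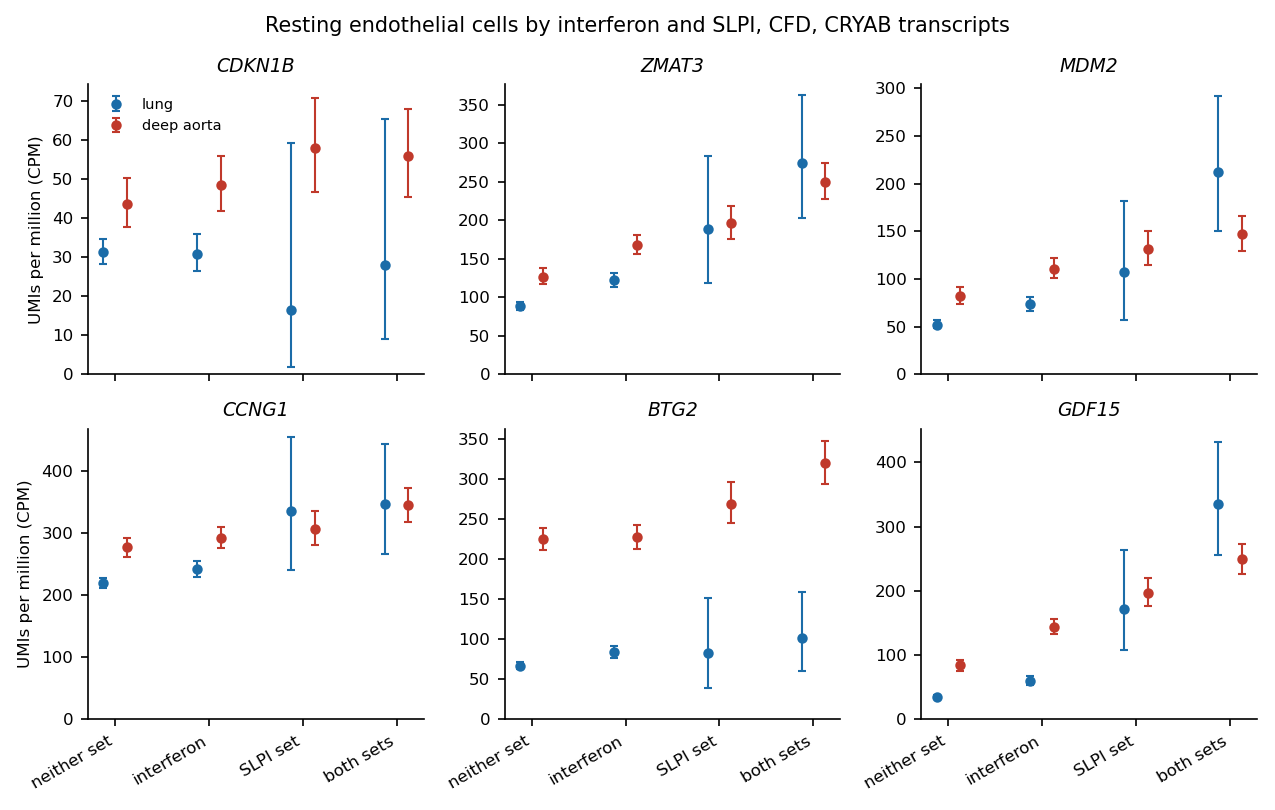
Levels of 6 members in resting ECs with neither gene set, with interferon-induced transcripts, with SLPI, CFD and CRYAB transcripts, or with both, in CPM with 95% Poisson intervals; blue is the lung and red the deep aorta. GDF15, MDM2 and ZMAT3 rise from left to right in both libraries, to 335, 212 and 274 CPM in the 18 lung cells with both sets, while the intervals of CDKN1B overlap.

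The mitochondrial share moved with the same genes in the lung. From resting ECs with 1 to 5% mitochondrial UMIs (709 cells) to those with 5 to 10% (1124) and 10 to 30% (43), GDF15 went from 33.8 to 50.1 and 149 CPM, MDM2 from 47.9 to 66.8 and 135 CPM, and ZMAT3 from 79 to 111 and 252 CPM. CDKN1B had 28.5, 33.3 and 13.3 CPM (4.31 to 31 in the last group). With 14, 176 and 13 cells of the deep aorta, GDF15 had 112, 145 and 192 CPM and ZMAT3 139, 170 and 193 CPM. The part of cell quality in the levels was not tested. Within cells of 5 to 10% mitochondrial UMIs, the members' ratios of resting to cycling kept their side of 1 in both the lung and the deep aorta.

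The second comparison was between collagen-high cells and ECs. CDKN1B was the member that differed most. It had 6.94 CPM (4.4 to 10.4) in lung collagen-high cells and 33.9 CPM in lung ECs, a ratio of 0.205 (0.129 to 0.308), and 10.1 CPM (8.06 to 12.4) and 52.5 CPM in the deep aorta, a ratio of 0.192 (0.153 to 0.238). Resting cells alone gave the same direction, with 3 UMIs in 84 resting collagen-high cells of the lung (ratio 0.102, 0.021 to 0.301) and 7 in 14 of the deep aorta (ratio 0.181, 0.0724 to 0.375). Of all genes counted, 10.5% in the lung and 12.6% in the deep aorta were lower past 2-fold in collagen-high cells, and between resting cells 11.8% and 16.7%.

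Among deep aorta cells 4 members were lower and 0 higher past 2-fold, where 7.74% of genes were higher. They were CDKN1B, ZMAT3 (40.7 and 134 CPM, ratio 0.305, 0.273 to 0.34), MDM2 (35.5 and 93.9 CPM, ratio 0.378, 0.335 to 0.426) and BTG2 (71.2 and 186 CPM, ratio 0.383, 0.352 to 0.416). CCNG1 followed with 143 and 259 CPM and a ratio of 0.553 (0.52 to 0.587). Of these deep aorta collagen-high cells, 74 of 127 were cycling. Between resting cells of both classes the ratios were 0.255 for ZMAT3, 0.28 for MDM2, 0.226 for BTG2 and 0.641 for CCNG1. The 14 resting collagen-high cells held 34 UMIs of ZMAT3, 24 of MDM2, 44 of BTG2 and 150 of CCNG1. The part of the cycle in the ratios of the whole classes was not tested. Between these resting cells 14.4% of genes were higher past 2-fold.

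In the lung fewer members differed. MDM2 had 33.5 and 57.8 CPM (ratio 0.58, 0.475 to 0.701) and BTG2 31.4 and 60.8 CPM (ratio 0.516, 0.421 to 0.628). ZMAT3, at 78.8 and 85.9 CPM, had a ratio of 0.917 (0.806 to 1.04) whose interval included 1, and CCNG1 had a ratio of 0.86 (0.789 to 0.935). GDF15 was the 1 member higher past 2-fold, where 7.09% of all genes counted were. It had 78.8 CPM (69.5 to 88.9) in lung collagen-high cells and 39.2 CPM (37.5 to 41) in ECs, a ratio of 2.01 (1.76 to 2.29). A single cell held 38 of its 261 UMIs there (14.6%), and without the 5% of cells with the most UMIs the ratio was 1.48. Between resting cells it was 1.61 (1.24 to 2.06), not past 2-fold, where 8.11% of genes were. BTG2, at 24.3 and 72.1 CPM between resting lung cells, was lower past 2-fold (ratio 0.338, 0.213 to 0.509). The deep aorta had the opposite direction, with GDF15 lower in collagen-high cells (81.4 and 112 CPM, ratio 0.725, 0.668 to 0.786). Cycling collagen-high cells had 107 CPM of GDF15 (88.3 to 128) in the lung and 62.5 CPM (56.1 to 69.5) in the deep aorta, and resting ones 74.1 and 81.2 CPM. The 12 collagen-high aorta cells within the limits had 5 GDF15 UMIs (27.3 CPM, ratio 0.237, 0.0756 to 0.569), and 4 members were lower past 2-fold there, where 18.0% of genes were lower and 15.5% higher.

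Among the 28 other p53 targets, TP53I11 differed most between collagen-high cells and ECs, with 2.72 and 60.5 CPM in the lung and 1.74 and 47.1 CPM in the deep aorta. PLK3 was higher past 2-fold in the lung (39.5 and 17.6 CPM) and SESN2 in the deep aorta (21.1 and 7.18 CPM). In the list of the integrated stress response, which also holds SESN2, many genes were higher: 5 of 10 counted in the lung and 9 of 11 in the deep aorta passed 2-fold upward and 0 downward. ASNS, which makes asparagine, had 251 and 91.5 CPM in the lung and 245 and 37.6 CPM in the deep aorta. Immediate early genes went the other way, with 3 of 6 and 4 of 6 lower past 2-fold, among them EGR1 (20.5 and 59.8 CPM, 27.9 and 112 CPM), while DUSP1 was higher in the lung (284 and 128 CPM). CDKN3, a phosphatase gene, was higher in deep aorta collagen-high cells (119 and 38.3 CPM), and FOXO1, a transcription factor gene of quiescence, lower in both libraries (23.8 and 50.7 CPM, 18.7 and 59.3 CPM).

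Within collagen-high cells 0 members passed 2-fold between resting and cycling cells. Of all genes, 1.08% were higher and 3.68% lower past 2-fold in the lung and 0.378% and 1.67% in the deep aorta. Resting to cycling ratios in the deep aorta were 1.3 for ZMAT3 (0.874 to 1.88), 0.874 for MDM2 (0.547 to 1.34), 0.828 for BTG2 (0.591 to 1.13) and 1.3 for GDF15 (0.978 to 1.7), from 14 resting and 74 cycling cells, and all 4 intervals included 1. CCNG1, at 1.43 (1.19 to 1.71) in the deep aorta and 1.31 (1.06 to 1.62) in the lung, was higher in resting cells as in ECs. GDF15 in the lung was lower in resting collagen-high cells (74.1 and 107 CPM, ratio 0.695, 0.51 to 0.942). Whether these ratios differ from those of ECs was not tested.

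The third comparison set resting lung ECs beside resting deep aorta ECs. All 6 members counted were lower in the lung, and 2 were so past 2-fold, where 4.45% of genes were and 1.56% were higher. BTG2 had 72.1 CPM in the lung and 246 CPM in the deep aorta, a ratio of 0.293 (0.274 to 0.313), and GDF15 46 and 145 CPM, a ratio of 0.317 (0.291 to 0.345). The other ratios were 0.561 for MDM2 (0.517 to 0.609), 0.601 for ZMAT3 (0.563 to 0.641), 0.633 for CDKN1B (0.562 to 0.713) and 0.77 for CCNG1 (0.736 to 0.806). Their median was 0.581, against 0.986 over all genes tested. CDKN1C, under 20 CPM in both, had 50 and 102 UMIs (2.84 and 8.73 CPM, ratio 0.325, 0.227 to 0.461), of which a single lung cell held 12. The collagen and mesenchymal markers summed to 33.9 and 227 CPM in these classes. With 1 library each, tissue, animal, culture and library cannot be told apart. Depth also differed, and the deep aorta cells were taken by their high number of genes. Against the aorta cells within the limit on genes the ratio of GDF15 was 0.53.

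Genes with the most similar pattern were sought over 10 pooled classes (resting, intermediate, S side, G2M side and collagen-high cells of both cultures) among 3675 genes at 50 CPM or more in a class, by Pearson's r of log2(CPM + 5). CDKN1B was most like MARCKS (0.991), TLR4 (0.988) and SLC35F2 (0.984), which also had lower levels in collagen-high cells than in resting ECs. TLR4, a receptor of innate immunity, had 23.5 CPM in resting lung ECs and 1.21 CPM in lung collagen-high cells. MARCKS differed less, with 269 and 171 CPM in these classes, and SLC35F2 had 68.1 and 14.2 CPM. ZMAT3 was most like ATP6AP1 (0.972), MDM2 like CDA (0.942), CCNG1 like the mitochondrial gene COX1 (0.966), BTG2 like GRB2 (0.987) and GDF15 like GTF2H5 (0.959). The classes share libraries, and these values describe likeness over 10 points only.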

How the data were processed

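The authors deposited counts of UMIs per gene and cell for each library, made with Cell Ranger 3.0.2 from 10x 3′ (version 3 chemistry) reads on Sscrofa11.1, without normalization and before any limit on cells. Members and gene lists were chosen with earlier results of these data known.

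Of 5683 lung cells, 451 had under 5200 UMIs and were left out, as were 130 of the 246 aorta cells within the limits. Cells with both marker sets (24 in the lung, 1 among the deep aorta cells) were left out as mixed, 9 lung cells with 3 or more UMIs of immune genes likewise, and no doublet caller was run. A further 99 lung, 27 deep aorta and 30 other aorta cells had neither marker set. Levels were taken from all UMIs of the cells of a class. Intervals were exact Poisson intervals for levels and exact conditional (Clopper-Pearson) intervals for ratios, both at 95%, and cover counting error only. The ratio was tested on simulated data. Besides the members and MDM4, the text names up to 3 genes of each list with the largest ratios past 2-fold and 3 genes most like each member. Another gene of that rule is not reported here. Free RNA was not removed. Coordinates are from the RefSeq annotation of Sscrofa11.1, joined by symbol, while counts rest on Ensembl gene models. Python 3.11.15, numpy 2.4.6, pandas 2.3.3, scipy 1.17.1 and matplotlib 3.10.9 were used.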

Additional observations from a re-analysis of the deposited data

Results flagged for a closer look

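Ratios of the lung and the deep aorta lay on opposite sides of 1, with intervals that excluded 1, for 2 genes. MDM4 had a ratio of resting to cycling ECs of 0.861 in the lung and 1.49 in the deep aorta. GDF15 had a ratio of collagen-high cells to ECs of 2.01 in the lung and 0.725 in the deep aorta. With 1 library each, these differences were not tested.

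Cells outside the classes also carried transcripts of the members, above the limit that a count of 0 allows. In the 237 lung cells with 30% or more mitochondrial UMIs, ZMAT3 had 46.2 CPM, MDM2 61.6 CPM and CCNG1 50 CPM. In the 230 aorta cells of that kind, CDKN1B had 11.6 CPM, ZMAT3 65.9 CPM, MDM2 68.2 CPM, CCNG1 17.3 CPM, BTG2 164 CPM and GDF15 69.3 CPM. The median mitochondrial share was 85.3% in these lung cells and 88.6% in these aorta cells. Most UMIs behind these CPM were thus mitochondrial, and the levels cannot be set beside those of the classes. In the 130 aorta cells within the limits that had under 5200 UMIs, CDKN1B had 38.9 CPM, ZMAT3 47.9 CPM, MDM2 68.8 CPM, CCNG1 176 CPM, BTG2 59.8 CPM and GDF15 86.7 CPM. The median mitochondrial share of these shallow aorta cells was 0.197%, and their ACTA2 level was 1092 CPM.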

How the results depend on the processing

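No paired analysis was possible because each tissue had 1 library and no test was made. Of 600 ratios of members recomputed under the alternatives, 501 stayed within the counting interval of the value reported, 99 left it, and 0 of those past 2-fold crossed 1. In the lung and the deep aorta, every ratio of resting to cycling ECs, of collagen-high cells to ECs and of lung to aorta ECs kept its side of 1 under each alternative. In the aorta cells within the limits the resting to cycling ratio of GDF15 ran from 0.266 to 6.14 and kept its side under 8 of 15. The ratios of CDKN1B, ZMAT3, MDM2 and CCNG1 kept theirs under 9, 11, 13 and 13 of 15, and that of BTG2 under 15. The middle range of UMIs, cells of 5 to 10% mitochondrial UMIs and barcodes not shared were chosen after seeing the data.

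Members higher past 2-fold in resting deep aorta ECs numbered 1. They numbered 0 after thinning to 3000 UMIs and with cycling from 2 or from 5 cycle UMIs. They numbered 2 with scaled counts, with the mean over cells, with scaling by the median ratio and in the middle range of UMIs, and 3 with the longer list of cycle genes. For the aorta cells within the limits, the 1 member higher became 2 after thinning to 3000 UMIs or in the middle range, and 3 with another random draw or scaled counts. Their 0 lower became 1 under 10% mitochondrial UMIs, without the cells of most UMIs, with 10 endothelial UMIs and in the middle range. In lung collagen-high cells, the 1 member higher (GDF15) became 0 after thinning to 3000 UMIs, with the mean over cells, without the cells of most UMIs, at 5 to 10% mitochondrial UMIs and between resting cells. The 1 lower became 2, with BTG2, under another draw and under the last 4 of these settings. In collagen-high aorta cells within the limits, the 0 higher became 1 at a minimum of 5 CPM. The cause of these changes was not tested.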

Other observations

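In the aorta cells within the limits that had neither marker set, 30 cells of which 23 had under 1% mitochondrial UMIs, all 6 members counted were lower past 2-fold than in the 74 ECs beside them, where 33.1% of all genes counted were. Smooth muscle markers summed to 3700 CPM in these cells and 223 CPM in the ECs. BTG2 had 30.9 CPM (13.3 to 60.8) against 248 CPM, ZMAT3 69.5 CPM (41.2 to 110) against 235 CPM, and GDF15 34.7 CPM (15.9 to 65.9) against 115 CPM. CCNG1 had 147 CPM (104 to 201) against 338 CPM.

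In the 27 deep aorta cells that had neither marker set, GDF15 had 258 CPM (234 to 284) and MDM4 79.6 CPM (66.5 to 94.4), the highest pooled levels of both genes among the deep aorta classes. ZMAT3 had 168 CPM (149 to 189) there and BTG2 207 CPM (186 to 230). These cells only fell short of the marker limits. Their endothelial markers summed to 2485 CPM, against 3111 CPM in deep aorta ECs. Their collagen and mesenchymal markers summed to 239 CPM, against 192 CPM, and their smooth muscle markers to 452 CPM, against 286 CPM.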
